A study of Drosophila melanogaster with 4 samples.

Results

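The genes described here are the receptors, channels and carrier proteins through which flies smell and taste, measured in flies lacking dSETD3 (CG32732), the Drosophila homolog of a SET domain protein. They are 24 of the 1953 genes with a named probe, measured by 28 of the 32162 probes of the array. A probe was counted if the study's probe tables gave it, or its transcript, a symbol of the Or, Gr, Ir, ppk or Obp family with a number, and all other probes of the same transcript were added. The tables were held only in part, with 1992 probes of the table that lists probes whatever their outcome and 273 of the table of changed probes, so these are not all family members on the array. Of the 24 genes, 21 (23 probes) were named whatever their outcome. The other 3 genes (Ir7c, Obp99a and Obp56g, 5 probes) were named because a probe changed between the genotypes, and their change is therefore given as a description with no test.

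The study hybridised RNA of 5-day-old virgin females to 1-colour Agilent arrays, 2 arrays for control flies and 2 for dSETD3 KO flies, labelled as biological replicates. Control flies were w[1118]. The dSETD3 KO flies carried the same w[1118] background with both copies of CG32732 disrupted (w[1118];;CG32732-/-), by a cassette with the red fluorescent marker dsRED in place of the first exon. The allele was made with CRISPR-Cas9, crossed back to w[1118], and the animals came from a single KO stock. Whole flies were lysed, so the antennae, legs and mouthparts that carry the sensory neurons were a small share of each sample. In whole flies, fewer cells of a type and less RNA per cell cannot be told apart.

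Odorant receptors (Or) and ionotropic receptors (Ir) are the main receptor families of insect olfactory neurons, and gustatory receptors (Gr) and other Ir proteins serve taste. The pickpocket (ppk) genes code for sodium channels of the DEG/ENaC family, some of which act in salt taste, pheromone sensing or touch. Odorant binding proteins (Obp) are small carrier proteins that support cells secrete into the fluid around sensory neurons, and several are also made in other tissues. Most receptors are made by a few neurons each, which makes their RNA rare in a whole animal.

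The probes were 60 bases long. Sequences of 6 of them are shown because the results turn on them: ppk13, ppk10 and Ir62a were detected in both genotypes, while Gr5a, ppk11 and ppk16 were on the same arrays and not detected. The ppk genes lie on chromosome arm 2L, Ir62a on 3L and Gr5a on X, and ppk11 and ppk16 share 1 locus in the RefSeq annotation. Capitals mark a stop triplet that ends the probe in an open reading frame.
ppk13: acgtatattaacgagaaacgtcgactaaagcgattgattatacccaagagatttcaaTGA
ppk10: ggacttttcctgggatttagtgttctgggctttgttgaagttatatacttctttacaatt
Ir62a: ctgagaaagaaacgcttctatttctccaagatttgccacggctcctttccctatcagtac
Gr5a: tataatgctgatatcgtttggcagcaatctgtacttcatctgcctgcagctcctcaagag
ppk11: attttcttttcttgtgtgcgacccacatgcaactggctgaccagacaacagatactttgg
ppk16: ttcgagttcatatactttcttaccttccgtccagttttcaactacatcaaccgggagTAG
The probe of ppk13 and that of ppk16 both end at a stop triplet, TGA and TAG, so the last bases of the probe can be read as the end of the coding sequence. All 21 member probes with a sequence had a sense reading frame without a stop inside it, against 80.7% of the 1992 listed probes, and 6 of the 21 ended in a stop triplet, against 12.7%. Their GC content ran from 35% to 45% with a median of 45%. The 4 detected ones had a median of 40%, and the 17 not detected had a median of 45%. Over the 1992 listed probes the medians were 36.7% for the 1246 detected and 41.7% for the 746 not detected. Whether base composition had a part in detection was not tested.

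The knockout was visible on the arrays. A CG32732 probe gave 1090 and 1150 on the control arrays and 3.47 and 3.50 on the dSETD3 KO arrays, and the other CG32732 probe gave 7810 and 7999 against 9.87 and 4.99. Signals are background-corrected intensities in arbitrary units. A probe is called detected in a genotype if the scanner software marked it well above background on both arrays, and between 63.6% and 66.8% of all probes were marked so on an array. The second dSETD3 KO array was the dimmest, with a 75th percentile signal of 1179 against 1630 to 1766 on the others, and changes were therefore computed on log2 values relative to each array's own 75th percentile. All 4 arrays lay on 1 slide, and position on the slide and genotype cannot be told apart.

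Most chemosensory genes gave no signal well above background in whole virgin females of either genotype. Of the 28 probes, 9 (32.1%) were detected in at least 1 genotype, for 7 of the 24 genes, while 65.6% of all 32162 probes were detected. Among the 23 probes named whatever their outcome, 4 were detected (17.4%), against 62.6% of the 1992 listed probes. Control and dSETD3 KO flies each had 8 detected member probes, a count that includes probes of genes named because a probe changed. Of the 23 named whatever their outcome, 4 were detected in control flies and 3 in dSETD3 KO flies. Ir47a was detected in control flies alone. Ir7c, named because a probe changed, was detected in dSETD3 KO flies alone.

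The genes lie on chromosome arms 2R (14 genes), 2L (4), 3L (1) and 3R (1) and on X (4). The families had few probes each, so the counts by family are a description. None of the 4 Or probes (4 genes) and neither of the 2 probes of Gr5a was detected. Of the 9 Ir probes (8 genes) 3 were detected, or 2 of the 8 Ir probes named whatever their outcome. Of the 5 ppk probes (5 genes) 2 were detected, and of the 8 Obp probes (6 genes) 4. The 4 detected Obp probes all belonged to Obp99a and Obp56g, which were named because they changed, and 0 of the 4 Obp probes named whatever their outcome was detected. The plot of probes by family shows these counts.

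**Figure D1:**
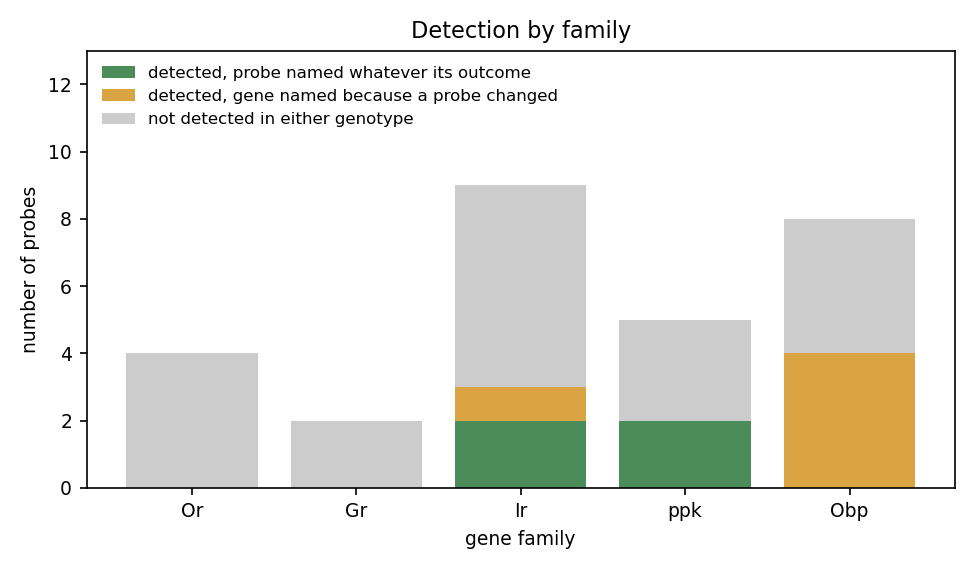
Number of member probes in each family (Or, Gr, Ir, ppk, Obp), split into probes detected and named whatever their outcome, probes detected in genes named because a probe changed, and probes not detected in either genotype. None of the 4 Or and 2 Gr probes was detected, and the detected Obp probes all came from genes named for their change.

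The 19 undetected probes belonged to 17 genes, and none of them was well above background on any of the 4 arrays. Their signals ran from 2.55 to 11.9 with a median of 3.35, whereas the lowest signal marked well above background was between 5.62 and 7.42 on the 4 arrays. Of the 76 signals, 52 were not positive and significant by the software's own looser mark. For such spots the software gave a small positive value, between 2.43 and 4.84 over all spots of the 4 arrays, also where the subtracted signal was negative, so these values have no order.

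Among the odorant receptors, Or45b, a receptor known from larvae, was the brightest. It gave 9.07 and 11.9 on the control arrays and 5.58 and 3.65 on the dSETD3 KO arrays. It was the undetected probe with the lowest adjusted p when limma was run with no filter on dim probes (adjusted p = 0.081), and 0 of the 19 probes passed in that fit, with 2 at an unadjusted p under 0.05. In the same fit 64 of all 32152 probes passed. Or45a, another larval receptor, gave 3.17 and 4.49 against 6.70 and 4.55, and its paired spots on 1 array differed by up to 2.36-fold. Or49a, a receptor for the odour of parasitoid wasps, stayed between 2.75 and 3.18. Or19b, which has a near-identical copy in Or19a, gave 3.23 and 6.23 against 3.23 and 5.49, so that the higher signal came from replicate 2 of both genotypes.

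Gr5a, a receptor for the sugar trehalose in sweet taste neurons, was measured by 2 probes. The first gave 4.74 and 2.93 on the control arrays and 3.96 and 8.37 on the dSETD3 KO arrays. The second gave 8.81 and 4.93 against 10.1 and 11.3. The groups overlapped on the first probe, and on the second the dSETD3 KO arrays were above the control arrays, all at signals not well above background. With the software's looser mark, positive and significant, 4 more probes would count as detected: both probes of Gr5a, Or45a and Or45b.

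The undetected ionotropic receptors were Ir10a (2 probes), Ir48b, Ir48c, Ir52a and Ir54a. Ir52a belongs to a group of taste receptors of the legs and mouthparts. Their signals ran from 2.64 to 4.54 with 1 exception, Ir48b on the second dSETD3 KO array at 6.74, where 1 spot gave 3.13 and the other 14.5. The undetected channels were ppk9, ppk11 and ppk16. ppk11 acts in salt taste, and ppk11 and ppk16 act together in the homeostasis of the neuromuscular synapse. ppk11 gave 3.26 and 5.86 against 3.28 and 2.86, and ppk16 stayed between 2.98 and 3.41. ppk9 was spotted 10 times on each array, and its spots ran from 2.47 to 8.65 with none well above background.

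The undetected binding proteins were Obp46a, Obp47a, Obp47b and Obp50e. The first 3 stayed between 2.55 and 3.25 on every array. Obp50e gave 5.65 and 3.19 on the control arrays and 3.09 and 8.26 on the dSETD3 KO arrays, with its highest and lowest signals both in dSETD3 KO flies. The plot of the undetected signals shows 8 of the 76 signals above the lowest detected signal of their own array, 3 of them from the second Gr5a probe and 2 from Or45b. A signal at background does not show that a gene was not expressed.

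**Figure D2:**
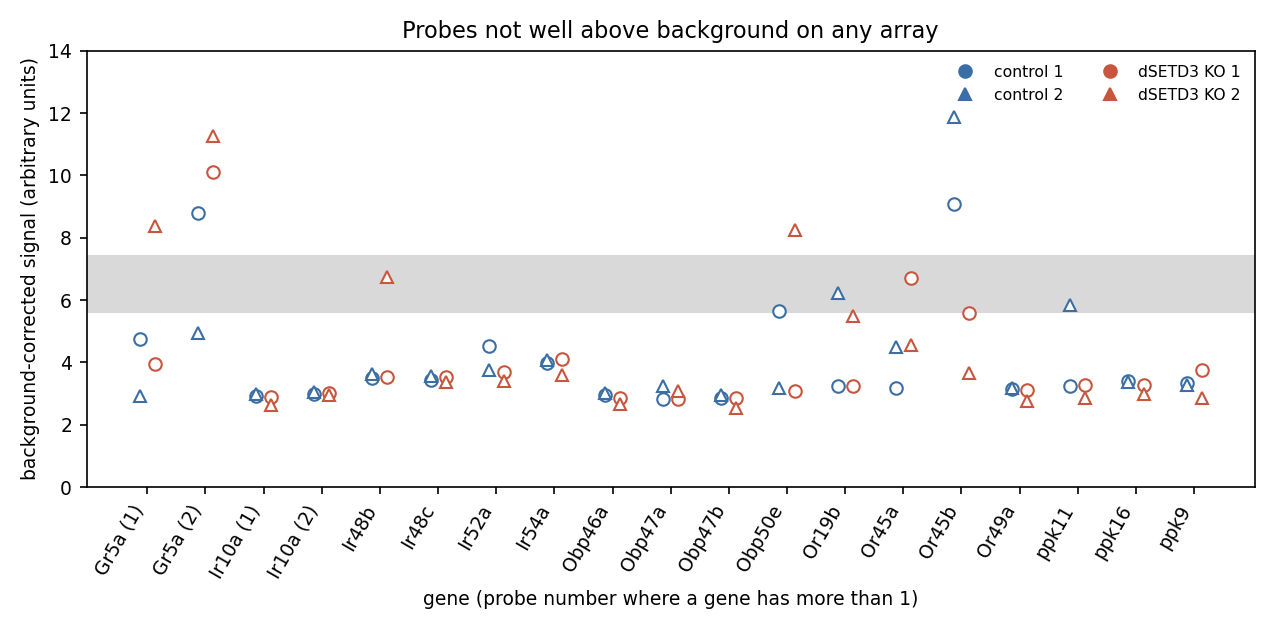
Background-corrected signal (arbitrary units) of the 19 probes not well above background on any array, for the control and dSETD3 KO arrays; the grey band spans the lowest signal marked well above background on each array (5.62 to 7.42). Most points lie near 3, and the highest is Or45b in control replicate 2 at 11.9.

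Of the 4 detected probes named whatever their outcome, Ir47a and ppk13 fell in dSETD3 KO flies, and Ir62a and ppk10 did not pass the test. The test was limma's moderated test over the 21082 probes detected in at least 1 genotype with a value on all 4 arrays, with Benjamini-Hochberg adjustment and a call at an adjusted p under 0.05. Over all probes tested, 16.6% (3497) were called lower and 3.8% (801) higher, 20.4% in either direction. With quantile normalization the calls were 2443 lower and 1411 higher, and with cyclic loess 2520 lower and 1493 higher. Of the 4 member probes 2 were called lower and 0 higher. Ir47a was tested only because it was detected in control flies, so the filter favoured a lower call for it. Among the 3 member probes well above background on all 4 arrays, 1 was called lower. The median log2 change of the 4 probes, Ir47a included, was −0.75, and that of all probes tested was 0.02. Tested dim probes as a whole were shifted down. Among the 2554 tested probes in the brightness range of the 4, the median log2 change was −0.32, with 69.3% below 0 against 48.4% of all probes tested. Of the 2554, 16.2% were called lower and 3.99% higher. Over the whole array, 1023 probes were detected in control flies alone and 228 in dSETD3 KO flies alone. The part of this filter in the shift was not tested. For 3 of the 4 probes both dSETD3 KO arrays lay below both control arrays, as for 37.2% of all probes tested, and for none of the 4 did both lie above, as for 39.4%.

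Ir47a is an ionotropic receptor gene. Its probe gave 33.9 on control array 1, 47.6 on control array 2, and 3.82 and 3.63 on the dSETD3 KO arrays. It was well above background on both control arrays and on neither dSETD3 KO array, where the signal was not positive and significant. The fitted log2 change was −3.15 (SE 0.21, limma adjusted p = 0.0124, n = 2 arrays a genotype). Ir47a passed the filter through the control arrays alone, which favours a lower call. Set against the lowest signal well above background on each dSETD3 KO array, its control level was 5.28-fold higher. That value is not a lower limit: 8 of the 76 signals of undetected probes lay above the lowest marked signal of their array. The log2 change was −0.85 in the deposited table (limma adjusted p = 0.0180) and −0.58 with normexp (0.0970, call lost). The call was also lost with no filter on dim probes (0.0629) and with the methods' t-test (0.136). The log2 change was −3.34 without control array 1 and −2.97 without control array 2. In those fits the lone control array is assumed to vary like the dSETD3 KO arrays, and 0 of the 21082 probes passed in either (lowest limma adjusted p 0.0747 and 0.0933, with 7183 and 4817 probes at an unadjusted p under 0.05), so they say nothing about a single call. Ir47a had 1 spot on each array, so the spread between spots could not be seen.

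ppk13 is a channel gene of the pickpocket family, and its probe is the 1 shown above that ends in TGA. The probe gave 47.6 and 69.4 on the control arrays and 30.7 and 19.4 on the dSETD3 KO arrays. The probe was well above background on all 4 arrays, but on the second dSETD3 KO array through only 1 of its 2 spots. The groups did not overlap. The normalised log2 levels were −5.10 and −4.67 in control flies and −5.76 and −5.93 in dSETD3 KO flies. ppk13 fell 1.94-fold (log2 change −0.96, SE 0.18, limma adjusted p = 0.0352). The log2 change was −1.17 without control array 1 and −0.74 without control array 2, where no probe of the array passed. The call was lost with quantile normalization (log2 change −0.71) and with cyclic loess (−0.67). With background correction by normexp in place of the software's own, the log2 change was −0.02, and in the deposited table it was −0.27, both without a call. The paired spots of ppk13 differed by 1.08-fold to 1.16-fold on the first 3 arrays and by 1.60-fold on the second dSETD3 KO array.

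Ir62a, which in flies is a receptor for the taste of calcium, gave 53.7 and 38.1 on the control arrays and 29.3 and 22.3 on the dSETD3 KO arrays. On dSETD3 KO array 2 only 1 of its 2 spots was well above background. Both dSETD3 KO arrays lay below both control arrays, also after scaling, where control array 2 (−5.53) came close to dSETD3 KO array 2 (−5.73). The log2 change was −0.55 (SE 0.23) and did not pass (limma adjusted p = 0.139). The change stayed below 0 under all 14 other ways of processing, from −0.85 to −0.05, with an adjusted p between 0.121 and 0.820 (limma, and under 1 setting the methods' t-test).

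ppk10 gave 16.7 and 22.8 on the control arrays and 16.1 and 16.4 on the dSETD3 KO arrays. After scaling the groups overlapped, with −6.61 and −6.28 in control flies and −6.69 and −6.17 in dSETD3 KO flies. The log2 change was 0.01 (SE 0.23, limma adjusted p = 0.963). Its sign turned when the 75th percentile was taken over probes well above background on all arrays. It also turned without control array 1 and without dSETD3 KO array 2. The paired spots of ppk10 differed by up to 2.02-fold on 1 array. On each dSETD3 KO array only 1 of its 2 spots was well above background. The plot of the detected signals shows ppk13, Ir62a and ppk10 close to the lower end of what the arrays could measure.

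**Figure D3:**
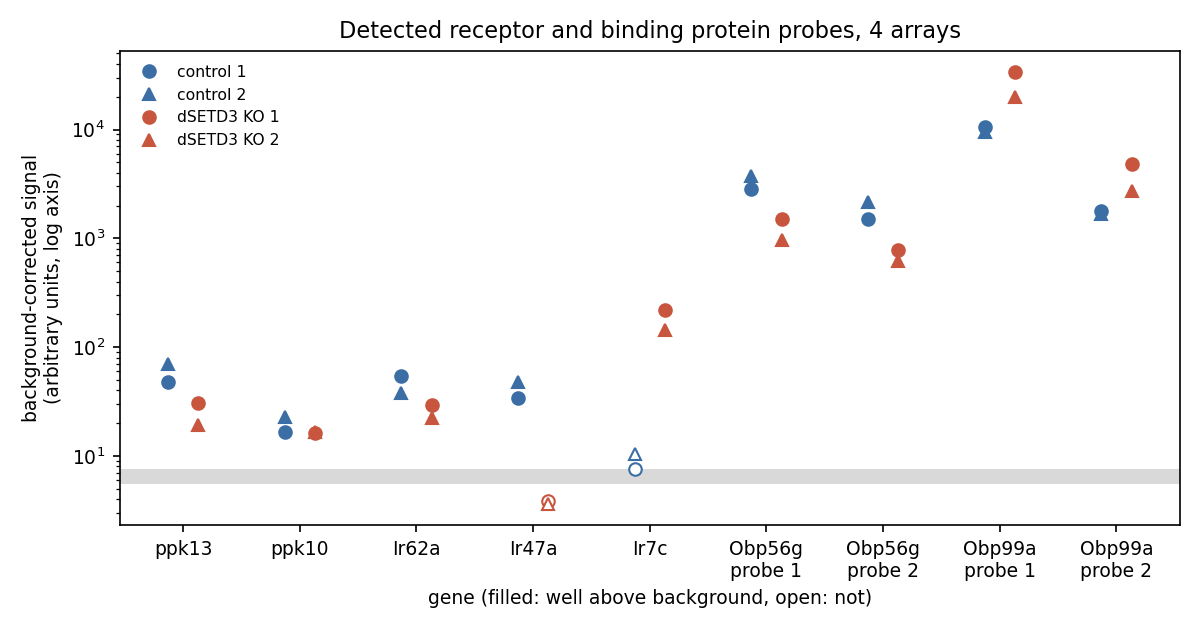
Background-corrected signal (arbitrary units, log axis) of the 9 detected probes on the 2 control and 2 dSETD3 KO arrays. Filled points were well above background, open points were not, and the grey band spans the lowest signals well above background (5.62 to 7.42); Ir47a lies below it in dSETD3 KO flies and Ir7c just above it in control flies.

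The 3 genes named because a probe changed spanned a wide range of signals. Ir7c codes for an ionotropic receptor needed for the taste of high salt. Its probe gave 7.64 and 10.3 on the control arrays, not well above background, and 220 and 144 on the dSETD3 KO arrays. Both dSETD3 KO arrays lay above both control arrays, as for 39.4% of all probes tested. The paired spots on an array differed by no more than 1.15-fold. With the software's background correction the measured level was 24.3-fold higher in dSETD3 KO flies (log2 4.60). This is not a lower limit, as the control signals it rests on were not well above background. They were brighter than the dimmest probes marked so there. The size rests on how background was removed: the log2 change was 2.27 in the deposited table, which has no background subtraction, and 1.94 with normexp. Ir7c lies on the X chromosome, as CG32732 does, with 68 protein-coding genes between them in the RefSeq annotation. The other X-linked members were farther away (Gr5a 151, Ir10a 414 and Or19b 1355 genes) and were not detected, so they have no measured change to set beside that of Ir7c. Whether the position on X had a part in the change of Ir7c was not tested.

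Obp99a was the brightest member. It codes for an odorant binding protein. Its first probe gave 10462 and 9580 on the control arrays and 33554 and 19987 on the dSETD3 KO arrays, a 3.13-fold higher level after scaling (log2 1.65). Its second probe gave 1800 and 1676 against 4789 and 2721, or 2.52-fold (log2 1.33). Both probes were themselves named because they changed, so their shared direction and lack of overlap are no separate evidence. Over all probes tested, both dSETD3 KO arrays lay above both control arrays for 39.4%. The first dSETD3 KO array was the higher of the 2 on both probes. Paired spots of the first probe differed by no more than 1.11-fold.

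Obp56g codes for a binding protein made in heads, and in males also in the ejaculatory bulb, from which it passes to the female at mating. Its first probe gave 2810 and 3735 on the control arrays and 1502 and 974 on the dSETD3 KO arrays, a 2.21-fold lower level (log2 −1.14). The second, which entered through the shared transcript, gave 1490 and 2134 against 776 and 614, or 2.13-fold lower (log2 −1.09). Both probes were lower on both dSETD3 KO arrays than on either control array, as were 37.2% of all probes tested. Markers of the male reproductive tract were not detected in these virgin females. Of 44 listed genes 11 had a named probe, 0 of their 19 probes was detected, and the highest signal was 19.1. Their summed signal, not scaled between arrays, was 80.7 and 80.9 in control flies and 94.0 on each dSETD3 KO array.

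**Figure D4:**
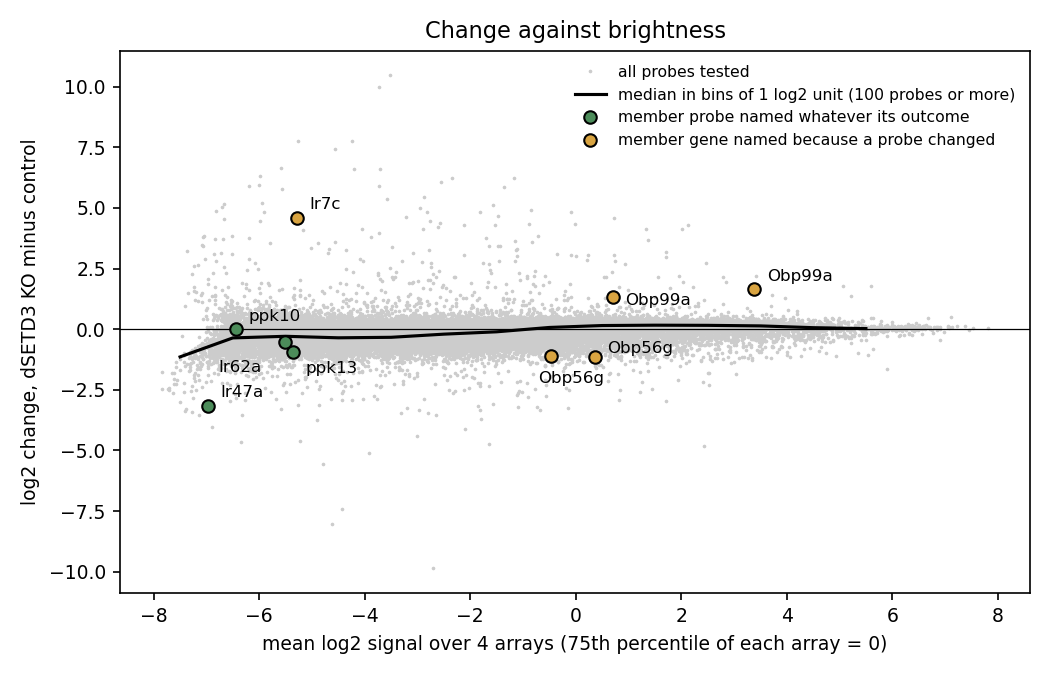
Log2 change (dSETD3 KO minus control) against the mean log2 signal over 4 arrays (75th percentile of each array set to 0) for all 21082 probes tested (grey), with the running median and the member probes marked. The median lies below 0 for dim probes, where ppk13, Ir62a, ppk10 and Ir47a are, and the Obp probes lie among brighter ones.

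The member probes differed in how far the processing moved them. The Obp99a probes kept log2 changes between 1.49 and 1.77 and between 1.17 and 1.49 under the 14 other settings, and the Obp56g probes between −1.29 and −0.997 and between −1.29 and −0.89. Ir7c, Ir47a, ppk13 and Ir62a kept their direction and changed in size with the way background was removed, as the plot of change by processing shows. With normexp the log2 change was −0.02 for ppk13 and −0.05 for Ir62a.

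**Figure D5:**
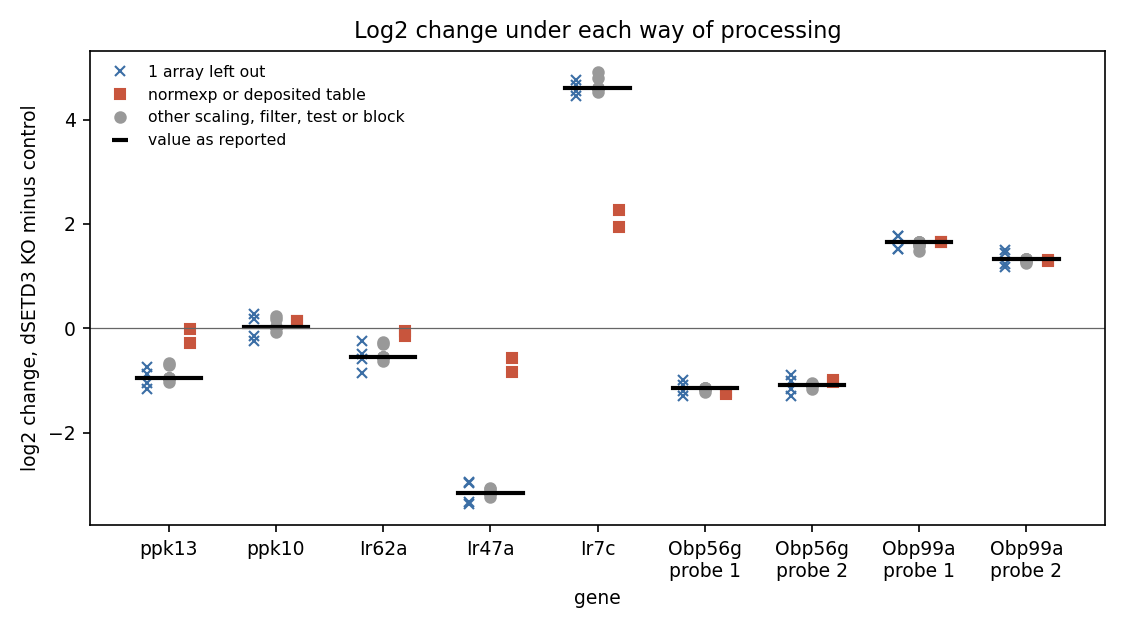
Log2 change (dSETD3 KO minus control) of the 9 detected probes as reported (black bars) and with 1 array left out (crosses), with normexp background correction or the deposited table (squares), and with the other settings (circles). The Obp probes move little, whereas Ir7c, Ir47a, ppk13 and Ir62a move toward 0 with the squares and ppk10 lies on both sides of 0.

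Outside these families, few genes of related function passed the test. Of 50 listed genes (CheA and CheB proteins, TRP channels, other carriers and regulators of sense organs), 14 with 23 probes were named whatever their outcome. Of those probes 15, from 6 genes, were tested: 1 was called lower and 0 higher (16.6% and 3.8% of all probes tested), 11 had a log2 change below 0, and the median log2 change was −0.45. With quantile normalization or cyclic loess, 0 were lower and 1 higher. CheA and CheB genes code for secreted proteins of taste and pheromone sensilla, and 3 of 11 were detected. CheA84a gave 111 and 178 on the control arrays and 60.6 and 63.2 on the dSETD3 KO arrays (log2 change −0.90, limma adjusted p = 0.088). CheB42b gave 179 and 265 against 118 and 124 (−0.57, limma adjusted p = 0.160), and CheB42c, on its first probe, 595 and 877 against 395 and 428 (−0.54, limma adjusted p = 0.193) and on its second −0.51 (0.176). In each case both dSETD3 KO signals, not scaled between arrays, were below both control signals, and no probe passed the test. After scaling, both dSETD3 KO arrays were below both control arrays for 9 of the 15 tested probes of the whole list (37.2% of all probes tested). For 2 of the 15 both were above (39.4% of all probes tested). The other 8 CheA and CheB probes gave signals from 2.58 to 12.2 and were not detected.

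Among the TRP channels, pain, needed to sense noxious heat and wasabi, had log2 changes of −0.47, −0.60 and −0.45 on its 3 probes. The dimmest of these, with 53.3 and 63.2 against 40.7 and 30.1, was the probe called lower (limma adjusted p = 0.0436), and the others missed the threshold (0.0506 and 0.0538). Trpm, a channel for divalent cations, had 6 probes with log2 changes from −0.03 to 0.15 (limma adjusted p of 0.243 or more). Jhedup, an esterase related to the juvenile hormone esterase, had log2 changes of −0.55 and −0.42 (limma adjusted p = 0.0671 and 0.113). takeout (to), a carrier protein of heads and fat body, was named because it changed, and gave 1045 and 1025 on the control arrays and 179 and 192 on the dSETD3 KO arrays (log2 −2.20).

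Most tested probes of neuron and eye markers were lower in dSETD3 KO flies. Of 31 listed neuron genes 22 had a named probe, all named whatever their outcome. Of their 40 tested probes 24 were called lower and 0 higher (16.6% and 3.8% of all probes tested), and the median log2 change was −0.73. Both dSETD3 KO arrays were below both control arrays for 38 of the 40, as for 37.2% of all probes tested. The counts of the marker lists are given for the main setting only. Their summed signal was 10597 and 13437 in control flies and 6669 and 5241 in dSETD3 KO flies. Summed signals, here and for the eye and fat body lists, are not scaled between arrays, and the second dSETD3 KO array was the dimmest. Of 34 eye genes 13 were named, 9 of them because a probe changed. Of the 20 tested probes of all 13 genes 16 were called lower and 1 higher, with summed signals over all their probes of 55593 and 65020 against 23958 and 17943, a count that the naming favours. The 4 eye genes named whatever their outcome had summed signals of 6440 and 7622 against 3136 and 2439, and their 3 tested probes were all called lower, with a median log2 change of −0.98. Of 29 fat body genes 10 were named, 8 of them whatever their outcome, with summed signals of 196014 and 197448 against 226399 and 165263, and among the 10 tested probes that were named whatever their outcome 2 were called lower and 2 higher, with a median of 0.11 on the log2 scale. The part of the neuron, eye and fat body markers in the receptor and Obp values was not tested.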

How the data were processed

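RNA of virgin female flies was measured on 1-colour Agilent arrays, 2 control and 2 dSETD3 KO. For each array the authors deposited the Feature Extraction output (10.7 in the submitters' processing notes, 10.7.3.1 in the file headers) with background-corrected spot intensity values, not normalized between arrays. Control array 1 is rounded to about 3 digits in it. The authors also deposited a table with 1 intensity per probe and array, equal, for 99.8% of probes, to the averaged median pixel intensity of its spots (tolerance 0.011). The scale is linear, uncentred, without background subtraction. The array design is built on dm3 and the RefSeq annotation is of a later release, so no coordinates are given.

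Control spots (1417 of 45019) and spots marked as outliers (45 to 73 an array) were left out, no spot was saturated, and the log2 signals of a probe's remaining spots were averaged. A probe was well above background on an array if at least 0.5 of its spots were. Each array was then set relative to its 75th percentile. The 21082 probes detected in a genotype (well above background on both of its arrays), with a value on all 4 arrays, were tested with lmFit and eBayes (limma 3.58.1, R 4.3.3), genotype being the only term, with Benjamini-Hochberg adjustment. Arrays of a genotype correlated at r = 0.991 and 0.993 over the probes tested. The number of arrays, 2 per genotype, limits the precision. The fit was tested on simulated data with known changes. Python 3.11.15 with pandas 2.3.3, numpy 2.4.6 and matplotlib 3.10.9 served for tables and plots.

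Gene names came from the study's probe tables and, for 406 of 2776 named probes, from RefSeq accessions. No comparison of the authors was used. Members and gene lists were chosen with earlier results of these data known. Every member was named, with full values for those detected. Of the related genes, those tested were named. Alternatives covered normalization, background correction (normexp with offset 50 on median signals), the source of values, the filter on dim probes, the test (the methods' t-test), the replicate block and each array left out.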

Additional observations from a re-analysis of the deposited data

How the results depend on the processing

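With 2 arrays per genotype the number of calls depended on the test, the filter and the background correction. Over all probes (3497 lower, 801 higher) normexp gave 1391 lower and 405 higher, no filter on dim probes 26 and 38, and the methods' t-test after Benjamini-Hochberg adjustment 2 and 0 (6404 at an unadjusted p under 0.05). Quantile normalization gave 1411 higher and cyclic loess 1493. Leaving out 1 array gave 0 to 4163 lower and 0 to 981 higher. The counts of 0 came from leaving out either control array, where no probe passed, so calls lost there are not evidence about single probes. Same-numbered arrays of both genotypes deviated in opposite directions (r = −0.21), so no pairing by number was seen. This value alone cannot exclude a pairing. With the replicate number as a block 2509 were lower and 382 higher, and of the 4 member probes 1 was lower. With the crossed pairing, chosen after seeing the data, 1400 were lower and 319 higher, 2 of them member probes.

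Of the 2 member probes called lower, 1 remained with quantile normalization, cyclic loess, the deposited table and the filter to probes well above background on all arrays (which leaves out Ir47a), and 0 with normexp, no filter and the methods' t-test. Leaving out 1 array gave 0 to 2. None was called higher under any setting (limma, or the methods' t-test). ppk13 lost its call under 9 of 14 settings (log2 change −1.17 to −0.02, adjusted p 0.0218 to 0.932) and Ir47a under 5 of 13 (−3.37 to −0.58, adjusted p 0.000482 to 0.137), both keeping their direction. ppk10 (log2 change −0.25 to 0.28 with 1 array left out) turned to −0.063 with the 75th percentile of probes well above background on all arrays, −0.15 without control array 1 and −0.25 without dSETD3 KO array 2. Ir7c had log2 changes of 1.94 to 4.91. For the related genes, with 1 probe lower and 0 higher, the lower count was 3 with that percentile or the filter to all arrays, 0 with quantile normalization, cyclic loess, no filter, the methods' t-test and the crossed pairing, and 0 to 4 with 1 array left out, while 1 was higher with quantile normalization and with cyclic loess and 0 with 1 array left out. Detection gave 9 probes, 13 by the looser mark, 9 on at least 1 array and 7 on all 4. The cause of these differences was not tested. Dim signals limit most members: the 19 undetected probes have no measured change.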
